A study of Mus musculus with 12 samples.

Results

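The 40 mitotic genes described here encode proteins that take a cell into mitosis, build the spindle, join chromosomes to it, release the sister chromatids and divide the cell. They were listed by name and read from the probe sets that carry a member's symbol and no other. Of the 40 members 39 had such a probe set, out of 19938 gene symbols on the array, and Ccnb1, a B-type cyclin, was not analysed here. Top2a had 2 probe sets, and the brighter one stands for the gene.

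The values come from 12 whole-transcript arrays of sorted mouse dorsal skin cells, 3 arrays in each of 4 groups. Clock-positive bulge cells are hair follicle stem cells with bright alpha6 integrin, CD34 and high Venus, taken between days 18 and 19 of life. The mice bore Per1-Venus, in which the clock gene Per1 drives a fluorescent protein. Clock-negative bulge cells came from mice of the same age and reporter and carry the label Venus negative. The study design calls them dim and their labels also state the high Venus gate, and the grouping used here is that of the sample titles. About 20 mice were pooled for each bulge sample. The other groups are basal cells of the interfollicular epidermis, the skin between the follicles, from mice 1 year old, and no treatment is named for any group. They are Bmal1 KO mice, which lack the clock activator Bmal1 in the epidermis, and wild-type mice, with 5 mice in each sample. The driver of the Bmal1 deletion and the hour of collection were not given in the sources used here. The 2 comparisons ask how mitotic genes stand in stem cells that differ in the Per1 reporter and in epidermis that has lost Bmal1.

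Entry into mitosis is driven by the kinase CDK1 with cyclins A and B, and by the Polo and Aurora kinases. The spindle checkpoint then holds the anaphase-promoting complex until every kinetochore is attached, and the midzone and a contractile ring divide the cell. Transcription of these genes peaks together in G2 and M under B-MYB, FOXM1 and the MuvB proteins, and is held off in resting cells by the DREAM complex. Bulge stem cells rest for most of the hair cycle, while basal epidermal cells divide throughout life. In a sorted population the summed signal of such genes follows both the share of dividing cells and the RNA in each of them, and fewer cells of a type and less RNA per cell cannot be told apart.

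Many promoters of the members hold 2 short elements, shown here because the complexes that bind them are known regulators of G2 and M genes. The cell cycle genes homology region (CHR), which binds MuvB complexes, was searched as TTTGAA or TTCGAA, and the CCAAT box, which binds NF-Y, as CCAAT. The E-box CACGTG, the element that BMAL1 and CLOCK bind, was searched too. All were read on both strands of RefSeq windows from 250 bases before to 50 bases after each gene start (GRCm38.p6). Windows were held for 33 of the 40 members, 35 windows in all because Ect2 and Prc1 have overlapping pairs. A CHR letter match lay in 29 of 35 windows (82.9%), against 62.3% of 53 windows of other mitosis genes and 19.2% of all 32851 windows. A CCAAT box lay in 27 of the 35 (77.1%), against 69.8% of other mitosis genes and 37.4% of all windows. Both elements stood together in 25 (71.4%), against 45.3% and 7.52%, and 4 members (Birc5, Mad2l1, Nuf2 and Nusap1) had neither in their window. The E-box lay in 2 windows, those of Anln and Ttk (5.71%), against 3.77% and 7.15%. A match is a run of letters and not a measured site.

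The stretches below run 5′ to 3′ from 150 bases before to 30 bases after the gene start, with CHR and CCAAT matches of either strand in capitals. Cdk1 (GRCm38.p6, chr10:69352883-69353062 on the minus strand) and Ube2c (chr2:164769779-164769958 on the plus strand) are shown as members that separated the groups in both comparisons and hold both elements. Kif11 (chr19:37376232-37376411 on the plus strand) had the largest bulge change and holds 1 CHR and 1 CCAAT box. Cdca8 (chr4:124936888-124937067 on the minus strand) holds 4 CCAAT boxes, the last of which shares a base with the CHR. Top2a (chr11:99024160-99024339 on the minus strand) and Hmmr (chr11:40733408-40733587 on the minus strand) are shown as members whose epidermis groups overlapped and whose stretches hold both elements too. Nusap1 (chr2:119618148-119618327 on the plus strand) is shown as a member that rose in bulge cells and holds neither element.
Cdk1: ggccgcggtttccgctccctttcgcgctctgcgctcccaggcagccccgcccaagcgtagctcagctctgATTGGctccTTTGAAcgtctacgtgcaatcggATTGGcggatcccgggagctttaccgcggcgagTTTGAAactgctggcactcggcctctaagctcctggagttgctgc
Ube2c: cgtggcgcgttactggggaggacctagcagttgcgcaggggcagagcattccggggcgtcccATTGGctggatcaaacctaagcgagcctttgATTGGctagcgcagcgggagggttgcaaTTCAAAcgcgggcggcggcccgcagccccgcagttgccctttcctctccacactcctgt
Kif11: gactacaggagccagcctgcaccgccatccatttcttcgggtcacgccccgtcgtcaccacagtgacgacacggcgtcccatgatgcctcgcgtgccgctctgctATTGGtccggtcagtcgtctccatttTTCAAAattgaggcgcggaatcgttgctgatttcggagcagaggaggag
Cdca8: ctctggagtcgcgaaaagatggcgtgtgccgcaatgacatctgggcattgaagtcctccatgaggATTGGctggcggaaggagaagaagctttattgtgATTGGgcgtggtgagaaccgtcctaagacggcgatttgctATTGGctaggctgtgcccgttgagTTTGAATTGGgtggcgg
Top2a: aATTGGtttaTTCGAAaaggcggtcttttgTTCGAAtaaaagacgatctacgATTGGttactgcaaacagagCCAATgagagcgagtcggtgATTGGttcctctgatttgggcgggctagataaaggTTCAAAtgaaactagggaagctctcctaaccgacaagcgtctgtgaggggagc
Hmmr: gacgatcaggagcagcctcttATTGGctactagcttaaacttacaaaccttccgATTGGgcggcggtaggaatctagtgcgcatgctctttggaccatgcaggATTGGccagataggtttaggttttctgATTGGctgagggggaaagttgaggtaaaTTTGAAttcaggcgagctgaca
Nusap1: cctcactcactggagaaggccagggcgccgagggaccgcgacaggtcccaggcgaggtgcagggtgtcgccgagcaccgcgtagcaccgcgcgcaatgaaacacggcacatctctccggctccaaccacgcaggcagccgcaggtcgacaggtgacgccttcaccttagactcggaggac

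The deposited values are log2 intensities. Different probe sets are filled in the bulge and epidermis columns, so levels were compared only within a set. A gene was called when limma, a linear model with a spread shared over genes, gave an adjusted p under 0.05 over all 13956 genes tested in a comparison. Values after ± are standard errors of that fit unless marked SD. The targeted gene, Arntl (Bmal1), read 9.85, 9.60 and 9.55 in KO arrays, against 9.27, 9.47 and 9.34 in wild-type arrays, so its signal was not lower in the KO. Where its probes lie relative to the deletion was not given in the sources used here, so this checks nothing by itself. Nr1d1, a direct target of BMAL1, read 8.63, 8.39 and 8.44 in KO arrays, against 12.28, 12.52 and 12.60 in wild-type arrays, and fell by 3.98 on the log2 scale (limma adjusted p = 1.08e-05). In bulge cells Nr1d1 read 10.25, 10.31 and 10.30 in clock-positive arrays, against 10.28, 10.17 and 10.17 in clock-negative arrays, and the groups overlapped (0.08 ± 0.06, limma adjusted p = 0.298). Per1, whose reporter was sorted on, read 9.77, 9.72 and 9.81 in clock-positive arrays, against 9.36, 9.20 and 9.19 in clock-negative arrays, and these groups lay apart. Of 8 bulge markers all 8 passed the dim filter in the bulge arrays and 6 in the epidermis arrays, where Cd34 and Lgr5 did not, and the basal keratins Krt5 and Krt14 were above it in both sets. Several lists of markers of other cells moved with both comparisons, and their bulge counts stand beside 45.2% of all genes called higher and 18.3% lower. The mean of 7 T cell genes was 6.96 to 6.97 in clock-positive arrays, against 7.94 to 8.05 in clock-negative arrays, with all 7 called lower. All 7 genes of Langerhans and myeloid cells were also lower, with means of 7.73 to 7.78 in clock-positive arrays, against 8.30 to 8.39 in clock-negative arrays. Of 8 genes of suprabasal keratinocytes 4 were lower, with means of 10.93 to 10.95 in clock-positive arrays, against 11.43 to 11.51 in clock-negative arrays. Bulge stem cell markers were higher in 8 of 8 and endothelial markers in 5 of 5. Basal keratinocyte markers were higher in 3 of 7 and lower in 0. Hair matrix and germ markers were higher in 3 of 8 and lower in 2. Fibroblast markers were higher in 1 of 4 tested and lower in 2. Melanocyte markers were lower in 4 of 4 tested and red blood cell markers in 2 of 2, the red cell list with means of 7.04 to 7.11 in clock-positive arrays, against 8.27 to 8.29 in clock-negative arrays. No marker was at 0 in any group, since the log2 signal of every measured probe set here is above 0. The part of these cells in the mitotic results was not tested.

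In bulge cells the mitotic genes rose together in the clock-positive arrays. The mean of the 39 measured members was 8.27, 8.22 and 8.25 in clock-positive arrays 1 to 3, against 7.93, 7.72 and 7.82 in clock-negative arrays 1 to 3. The clock-positive arrays lay close together and above all clock-negative arrays. The group means were 8.25 ± 0.03 and 7.83 ± 0.11 (SD, n = 3 each), a difference of 0.42 or 1.34-fold. All 38 members tested were called higher and 0 lower in limma, where 45.2% of all genes were called higher and 18.3% lower. The member left out, Hmmr, lay under the dim filter and also separated the groups. The 3 clock-positive values lay above the 3 clock-negative values in all 39 measured members, as they did in 50.1% of all genes, while the reverse held in 0 members and in 19.1% of all genes. At an unadjusted p under 0.05, 38 of 38 were higher, where 48.2% of all genes were. The median change of the members was 0.41, against 0.15 over all genes tested, and each of the 38 lay above that 0.15. The changes ran from 0.21 to 0.70, and 6 exceeded 0.5. The background was higher among brighter genes. With the lowest 50% of genes by mean left out, 33 of 33 members were called higher, where 59.7% of all genes were. The median change was then 0.42 in the members and 0.213 over all genes, and Ndc80, at 0.209, lay below the latter. Clock-negative array 2 was the lowest of the 6 arrays in 29 of the 39 members.

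**Figure D1:**
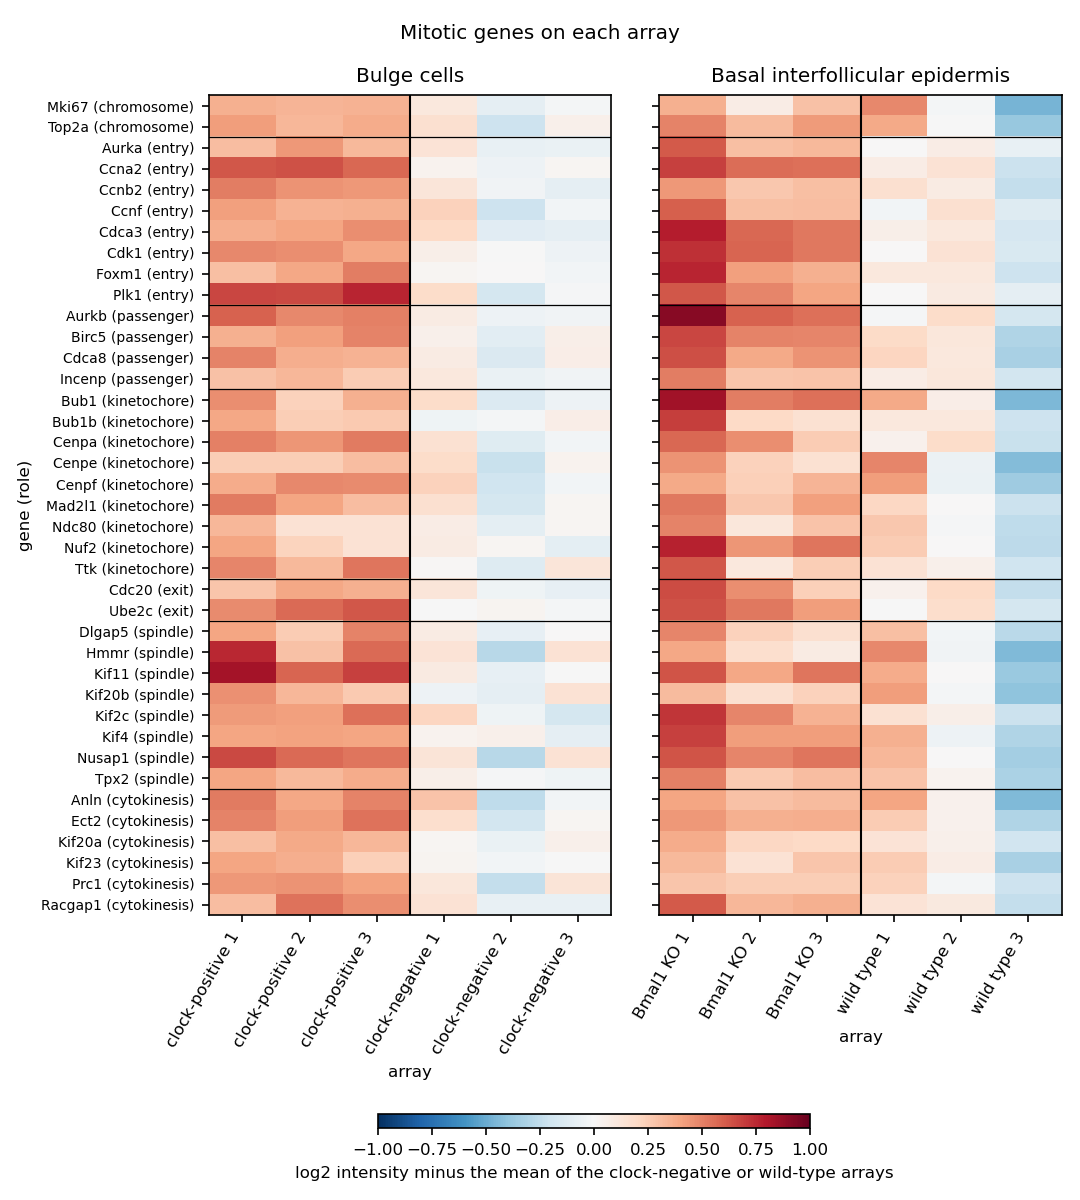
Heat map of the 39 measured mitotic genes (rows, with role) on each array (columns), as log2 intensity minus the mean of the clock-negative arrays (left) or of the wild-type arrays (right), from blue (lower) to red (higher). In bulge cells the 3 clock-positive columns lie above all clock-negative columns in 39 of 39 genes, and in the epidermis wild-type array 3 is the lowest column in all 39 while wild-type array 1 lies above at least 1 KO array in 12.

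Among the cyclins, kinases and regulators of mitotic entry all 8 measured members rose in clock-positive cells, by 0.36 to 0.70. Plk1, the Polo kinase of mitotic entry and spindle assembly, read 8.64, 8.63 and 8.74 in clock-positive arrays, against 8.16, 7.80 and 7.96 in clock-negative arrays. Its groups lay apart, and the change was 0.70 ± 0.09 (limma adjusted p = 0.000152). Ccna2, the A-type cyclin of S phase and G2, read 8.94, 8.96 and 8.90 in clock-positive arrays, against 8.35, 8.27 and 8.33 in clock-negative arrays. Each group was tight and they lay apart, with a change of 0.61 ± 0.06 and the smallest adjusted p of the members (3.01e-05 in limma). Cdk1, the kinase partner of cyclins A and B, changed by 0.44 ± 0.06, and its cyclin Ccnb2 by 0.46 ± 0.07. Foxm1, a transcription factor of the G2 and M genes, changed by 0.40 ± 0.07, Cdca3, which aids the destruction of the CDK1 inhibitor WEE1, by 0.41 ± 0.09, Ccnf, an F-box cyclin, by 0.37 ± 0.10, and Aurka, the spindle pole kinase, by 0.36 ± 0.08. Mki67, the Ki-67 protein that coats mitotic chromosomes, rose by 0.35 ± 0.07, and Top2a, which untangles sister DNA, by 0.38 ± 0.09 with its brighter probe set. The mean of the 2 probe sets of Top2a gave 0.16 and missed the threshold (limma adjusted p = 0.101).

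The 4 genes of the chromosomal passenger complex, which corrects faulty attachments at the centromere and later marks the midzone, all rose. Aurkb, its kinase, read 9.45, 9.34 and 9.37 in clock-positive arrays, against 8.95, 8.81 and 8.83 in clock-negative arrays, and the change was 0.52 ± 0.07 (limma adjusted p = 0.000152). Its groups did not overlap. The other subunits followed at 0.42 ± 0.07 for Birc5 (survivin), 0.40 ± 0.08 for Cdca8 (borealin) and 0.29 ± 0.07 for Incenp, the scaffold.

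Kinetochore and checkpoint genes rose in all 9 cases, by 0.21 to 0.49, and held the 3 smallest changes. Ndc80, which with Nuf2 forms the arm that grips microtubules, read 7.96, 7.77 and 7.77 in clock-positive arrays, against 7.70, 7.53 and 7.64 in clock-negative arrays. The lowest clock-positive array lay above the highest clock-negative array, and the change was 0.21 ± 0.08 (limma adjusted p = 0.0331). Nuf2 read 7.0, 6.83 and 6.76 in clock-positive arrays, against 6.69, 6.63 and 6.51 in clock-negative arrays (0.25 ± 0.08, limma adjusted p = 0.0181). Cenpe, a kinetochore motor that moves chromosomes to the spindle equator, read 6.85, 6.85 and 6.92 in clock-positive arrays, against 6.79, 6.39 and 6.65 in clock-negative arrays (0.27 ± 0.09, limma adjusted p = 0.0293). The groups of both lay apart by a narrow gap. These 3 were also the members whose call depended on 1 array. Without clock-positive array 1 the adjusted p was 0.150 for Ndc80, 0.0851 for Nuf2 and 0.0553 for Cenpe, and without clock-negative array 3 it was 0.0704, 0.0789 and 0.0585 in the same order. Ndc80 also missed without clock-negative array 2 (0.0959), and Cenpe without that array (0.0789), clock-positive array 2 (0.0551) or clock-positive array 3 (0.0843). The other 35 members kept their calls without any 1 bulge array. Cenpa, the histone that marks centromeres, had the largest change of these genes at 0.49 ± 0.08, and the checkpoint genes Ttk, Mad2l1, Bub1 and Bub1b changed by 0.45 ± 0.08, 0.41 ± 0.09, 0.35 ± 0.09 and 0.30 ± 0.07.

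Genes of mitotic exit and of the spindle held several of the largest changes. Ube2c, the ubiquitin-conjugating enzyme of the anaphase-promoting complex, read 8.75, 8.84 and 8.89 in clock-positive arrays, against 8.27, 8.30 and 8.26 in clock-negative arrays. Its groups were tight and apart (0.55 ± 0.06, limma adjusted p = 7.91e-05), while Cdc20, an activator of the same complex, changed by 0.34 ± 0.07. Kif11, the motor that pushes the spindle poles apart, read 8.45, 8.20 and 8.31 in clock-positive arrays, against 7.71, 7.54 and 7.62 in clock-negative arrays. Its groups were far apart, and its change was the largest of the members at 0.70 ± 0.08 (limma adjusted p = 7.23e-05). Nusap1, which bundles spindle microtubules, read 8.89, 8.79 and 8.76 in clock-positive arrays, against 8.35, 7.95 and 8.37 in clock-negative arrays. Clock-negative array 2 stood below the other arrays of its group, and the change was 0.59 ± 0.10 (limma adjusted p = 0.00101). Hmmr, a spindle protein first known as a hyaluronan receptor, read 6.66, 6.19 and 6.47 in clock-positive arrays, against 6.04, 5.62 and 6.04 in clock-negative arrays, with no overlap and no test. The other 5 spindle genes rose by 0.35 to 0.46. The 6 genes of the midzone and cytokinesis rose by 0.33 to 0.49, with Ect2, which activates the GTPase that drives the contractile ring, at 0.49 ± 0.09, Anln, an actin scaffold of that ring, at 0.47 ± 0.12 and Kif23, a midzone motor, at 0.33 ± 0.07.

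**Figure D2:**
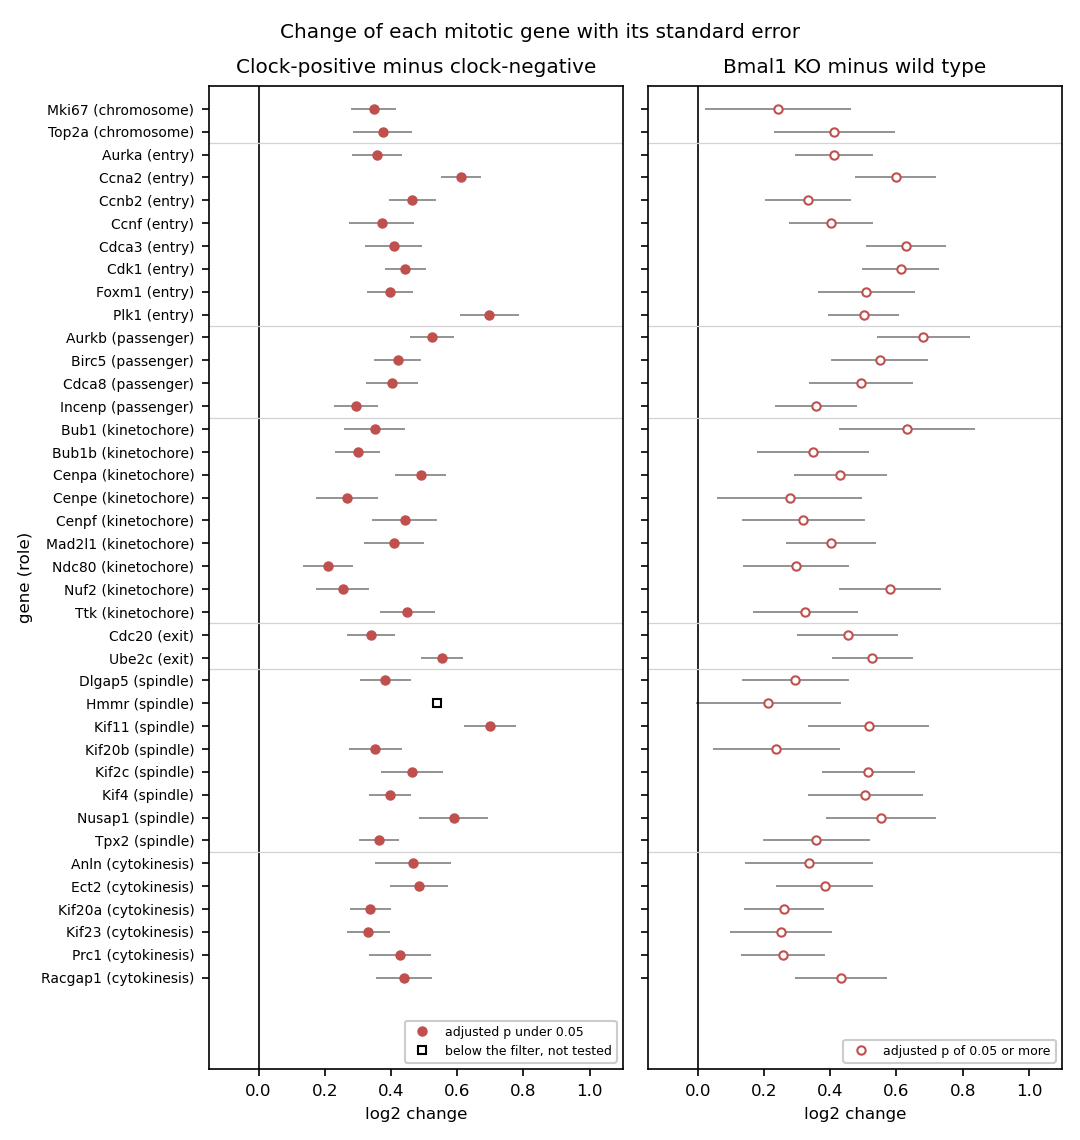
Change of each mitotic gene on the log2 scale, clock-positive minus clock-negative (left) and Bmal1 KO minus wild type (right), with lines for the standard error of the fit and filled points for an adjusted p under 0.05. In bulge cells all 38 tested genes are filled, from 0.21 (Ndc80) to 0.70 (Kif11), and the square is Hmmr, which was not tested. In the epidermis all 39 points lie above 0 with longer error lines and none is filled.

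The size of the bulge change depended on the scaling. Single values of genes spread more widely on clock-positive arrays (SD over genes 1.79 to 1.82) than on clock-negative arrays (1.60 to 1.66), and quantile normalization gives every array the same spread. Under quantile normalization 20 of 38 members were called higher, where 19.0% of all genes were, and under cyclic loess 24 were, where 20.5% of all genes were. Median centring gave 37, where 41.7% of all genes were called higher, and 0 members were called lower under any of these. The mean of the members then differed by 0.27 under quantile normalization and 0.27 under cyclic loess, against 0.42 as deposited. The median change of all genes moved too, to -0.01 under quantile normalization and to -0.00 under cyclic loess. Relative to it the members' median stood at 0.26 as deposited, at 0.23 under quantile normalization and at 0.23 under cyclic loess. The 20 members called under all 4 scalings were Ccna2, Ccnb2, Cdk1, Foxm1 and Plk1 of mitotic entry, Aurkb of the passenger complex, Bub1, Bub1b, Cenpa, Cenpe and Nuf2 of the kinetochore, Ube2c of mitotic exit, Dlgap5, Kif11, Kif20b, Kif2c, Kif4, Nusap1 and Tpx2 of the spindle, and Ect2 of cytokinesis. The 14 called under neither quantile normalization nor cyclic loess included Mki67, Top2a, Ndc80 and 3 of the 4 passenger genes. All 38 changes stayed positive under each scaling.

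In the epidermis of mice 1 year old the mitotic genes were all higher on average in the Bmal1 KO, but none passed the threshold. The mean of the 39 members was 10.11, 9.88 and 9.89 in KO arrays 1 to 3, against 9.75, 9.60 and 9.27 in wild-type arrays 1 to 3. The KO arrays lay above all wild-type arrays, while the wild-type arrays spread more widely than the KO arrays. The group means were 9.96 ± 0.13 and 9.54 ± 0.24 (SD, n = 3 each), a difference of 0.42 or 1.34-fold. In limma 0 of 39 members were called, where 0.0788% of all genes were called higher and 0.115% lower, and the lowest adjusted p of a member was 0.130. At an unadjusted p under 0.05, 24 of 39 were higher in the KO and 0 lower, where 2.46% of all genes were higher. The 3 KO values lay above the 3 wild-type values in 27 of 39, where 4.11% of all genes did, and below them in 0 of 39, where 8.56% did. All 39 changes were positive, with a median of 0.41, against -0.01 over all genes tested. The count of 24 rested on single arrays: it was 14 without wild-type array 3, 15 without KO array 1 and 38 without wild-type array 1. Of all genes 2.52%, 2.62% and 2.81% were higher at that p in the same 3 fits. The unadjusted p stayed under 0.05 without any 1 array in 12 members, namely Ccna2, Cdk1, Plk1, Aurka, Foxm1, Cdca3, Aurkb, Birc5, Nuf2, Ube2c, Kif2c and Nusap1.

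The overlaps all came from 1 wild-type array. Wild-type array 3 was the lowest of the 6 arrays in all 39 members, and KO array 1 was the highest in 34 while wild-type array 1 was the highest in 5. Values of all genes spread most widely on KO array 1 (SD over genes 2.02), against 1.97 on wild-type array 3 and 1.86 on wild-type array 1. The part of that spread in the order of the arrays was not tested. In each of the 12 members with overlap wild-type array 1 lay above the lowest KO array, and wild-type arrays 2 and 3 never did. Wild-type array 1 was also closest to the KO in markers of other cells. The mean of 7 T cell genes was 7.01, 7.13 and 7.08 in KO arrays, against 7.58, 8.52 and 8.80 in wild-type arrays. The mean of 7 Langerhans and myeloid genes was 7.17, 7.21 and 7.07 in KO arrays, against 7.24, 8.45 and 9.00 in wild-type arrays. That of 8 suprabasal genes was 9.99, 10.14 and 9.97 in KO arrays, against 10.07, 10.68 and 10.90 in wild-type arrays. Of these lists 0 genes were called in limma. At an unadjusted p under 0.05, 5 of 5 tested T cell genes, 6 of 7 myeloid genes and 2 of 8 suprabasal genes were lower. Of all genes 5.5% were lower at that p. Melanocyte genes were lower at it in 1 of 3 tested and red blood cell genes in 1 of 2. Of 8 hair matrix and germ, 3 fibroblast and 2 endothelial genes tested, 0 passed it in either direction. Basal keratinocyte markers differed little, at 12.64 to 12.68 in KO arrays, against 12.67 to 12.70 in wild-type arrays. The order of the wild-type arrays was thus reversed between the mitotic mean and these immune and suprabasal means, and the part of such cells in the mitotic values was not tested.

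**Figure D3:**
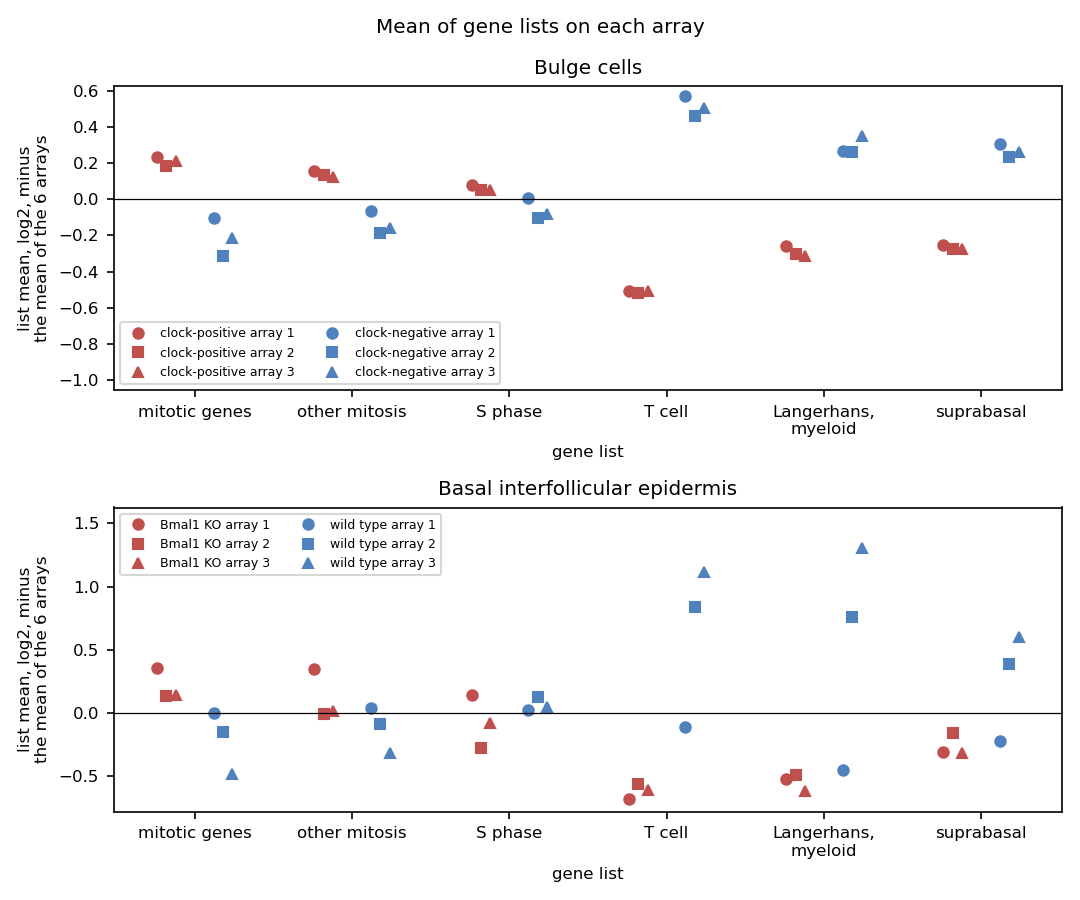
Mean log2 intensity of 6 gene lists on each array, minus the mean of the 6 arrays of its set, for bulge cells (top; red clock-positive, blue clock-negative) and basal epidermis (bottom; red Bmal1 KO, blue wild type), with 1 symbol shape per array number. In the bulge the mitotic means lie at 8.22 to 8.27 in clock-positive arrays before centring, above 7.72 to 7.93 in clock-negative arrays, and the T cell, myeloid and suprabasal lists run the other way. In the epidermis wild-type array 1 lies nearest the KO arrays in the mitotic, T cell, myeloid and suprabasal lists.

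Separation in the epidermis was counted by role. Of all genes 4.11% lay apart with the KO higher and 8.56% with the KO lower. The groups lay apart in all 8 genes of mitotic entry, all 4 of the passenger complex and both of mitotic exit, in 5 of 9 kinetochore genes, 4 of 8 spindle genes and 4 of 6 cytokinesis genes, and in neither Mki67 nor Top2a. The wild-type spread ran the same way: wild-type array 1 exceeded array 3 by 0.07 to 0.40 in the entry genes, by 0.37 to 0.93 in the spindle genes and by 0.76 to 0.94 in Mki67 and Top2a. Cdk1 read 10.08, 9.93 and 9.88 in KO arrays, against 9.35, 9.50 and 9.19 in wild-type arrays. Its groups were far apart, with a change of 0.61 ± 0.12 and the smallest limma adjusted p of the members (0.130). Cdca3 read 10.61, 10.40 and 10.36 in KO arrays, against 9.89, 9.93 and 9.66 in wild-type arrays (0.63 ± 0.12, limma adjusted p = 0.132). Ccna2 read 10.39, 10.26 and 10.25 in KO arrays, against 9.78, 9.84 and 9.48 in wild-type arrays (0.60 ± 0.12, limma adjusted p = 0.163). In both genes every KO array lay above every wild-type array by a wide gap.

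Aurkb had the largest difference of the members, 9.99, 9.67 and 9.63 in KO arrays, against 9.07, 9.27 and 8.91 in wild-type arrays. KO array 1 stood highest and the groups lay apart (0.68 ± 0.14, limma adjusted p = 0.164). The other passenger genes were at 0.55 ± 0.15 for Birc5, 0.49 ± 0.16 for Cdca8 and 0.36 ± 0.12 for Incenp. Bub1, the checkpoint kinase that gathers shugoshin and other checkpoint proteins at centromeres, read 9.27, 8.94 and 8.98 in KO arrays, against 8.81, 8.50 and 7.98 in wild-type arrays. Its wild-type arrays were far from each other, and the change was 0.63 ± 0.21 (limma adjusted p = 0.403). Nuf2 read 9.80, 9.48 and 9.57 in KO arrays, against 9.29, 9.04 and 8.78 in wild-type arrays (0.58 ± 0.15, limma adjusted p = 0.294). Its groups lay apart, unlike those of its partner Ndc80, which read 9.87, 9.49 and 9.65 in KO arrays, against 9.64, 9.36 and 9.12 in wild-type arrays.

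The smallest differences lay in Hmmr, Kif20b and Mki67. Hmmr read 8.91, 8.69 and 8.60 in KO arrays, against 9.00, 8.48 and 8.07 in wild-type arrays. Wild-type array 1 was its highest value of all, and the difference of 0.21 ± 0.22 became -0.01 without wild-type array 3. Kif20b, a midzone kinesin, read 9.34, 9.18 and 9.25 in KO arrays, against 9.44, 9.00 and 8.62 in wild-type arrays (0.24 ± 0.19, limma adjusted p = 0.903). Mki67 read 11.33, 11.05 and 11.27 in KO arrays, against 11.46, 10.96 and 10.51 in wild-type arrays (0.24 ± 0.22, limma adjusted p = 0.919). In both, wild-type array 1 again lay above all 3 KO arrays, and without wild-type array 3 the differences were 0.04 for Kif20b and 0.01 for Mki67. Top2a was at 0.41 ± 0.18 by its brighter probe set, while its dimmer one ran the other way, at 6.33, 6.21 and 6.17 in KO arrays, against 7.19, 6.94 and 6.45 in wild-type arrays. The mean of its probe sets gave -0.10 in the KO. It gives equal weight to the dimmer one, which averaged 6.24 in KO and 6.86 in wild-type arrays. That is about the level of Cd34 (6.49 and 6.60), which lay under the dim filter. The direction of Top2a in the epidermis is not settled.

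A direct test of the bulge change minus the KO change found no member past the threshold. It used all 12 arrays with 4 group means in limma, and it sets apart changes measured in mice that also differ in tissue and age. Of 38 members tested in both sets 0 were called, where 9.90% of all genes were called positive and 3.17% negative. At an unadjusted p under 0.05 there were 0 members in either direction. Of all 13100 genes 3380 (25.8%) were positive at that p and 1251 negative. The differences ran from -0.33 for Nuf2 (-0.33 ± 0.18, adjusted p = 0.202) to 0.20 for Plk1 (0.20 ± 0.14, adjusted p = 0.332), with a median of 0.01, against 0.17 over all genes. That median depended on the setting. It was -0.17 under quantile normalization and -0.16 under cyclic loess, against -0.01 and -0.00 over all genes. In each of these 2 of 38 members had a positive difference, against 20 as deposited. Without wild-type array 3 the median was 0.13, against 0.12 over all genes. A p that misses the threshold does not show that the changes were alike. Under quantile normalization Cdca3 was called (-0.49, adjusted p = 0.0475), and under cyclic loess Cdca3 (-0.49, adjusted p = 0.0428) and Cdk1 (-0.45, adjusted p = 0.0481). Without wild-type array 1 Nuf2 was called (-0.46, adjusted p = 0.0412). Each had the larger change in the KO. Of all genes 5.58%, 5.11% and 6.85% were called negative in these fits, in the same order. Side by side, Kif11 stood at 0.70 ± 0.08 in bulge cells and 0.52 ± 0.18 in the epidermis, Plk1 at 0.70 ± 0.09 and 0.50 ± 0.11, Ccna2 at 0.61 ± 0.06 and 0.60 ± 0.12, and Ube2c at 0.55 ± 0.06 and 0.53 ± 0.12. The bulge change was the larger one in 20 of the 38 members. Others had the larger change in the KO, such as Nuf2 at 0.25 ± 0.08 and 0.58 ± 0.15 and Cdk1 at 0.44 ± 0.06 and 0.61 ± 0.12. Over the 38 members the changes of the 2 comparisons correlated with Pearson's r = 0.42 and Spearman's rho = 0.42. That is a description across genes, which share arrays and are not independent replicates.

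Among other cell cycle genes, those of mitosis ran the same way as the members in bulge cells. Of 47 other mitosis genes tested in bulge cells 34 rose (72.3%, against 45.2% of all genes) and 0 fell, with a median change of 0.26 against 0.15 over all genes. Under quantile normalization 24 rose, where 19.0% of all genes did, and under cyclic loess 27 rose, where 20.5% did. The leading ones by p were Cdc25b, a phosphatase that activates CDK1, at 0.62 ± 0.06, Kif18a, a kinesin that trims microtubule ends, at 0.63 ± 0.09, Spc25, of the Ndc80 complex, at 0.50 ± 0.08, and Ckap2, a spindle protein, at 0.44 ± 0.07. Of 38 S phase and replication genes 15 rose (39.5%, against 45.2% of all genes) and 3 fell (7.89%, against 18.3%) as deposited, with a median of 0.09. Under quantile normalization 4 rose and 11 fell, where 19.0% of all genes rose and 19.5% fell, and under cyclic loess 5 rose and 11 fell, where 20.5% rose and 20.2% fell. The S phase count of 18 in both directions was 7 without clock-positive array 1 and 11 without clock-positive array 3. Of 20 regulators of mitotic genes (DREAM, MuvB, E2F and NF-Y) 11 rose, a share of 55.0% near the 45.2% of all genes, and 0 fell, with Lin54, the MuvB subunit that binds CHR elements, at 0.34 ± 0.07, while 0 rose and 2 fell under quantile normalization. Of 15 brakes on CDK1 and quiescence genes 6 rose, a share of 40.0% that is no higher than the 45.2% of all genes, and 0 fell. The CDK inhibitor Cdkn2d had the smallest p, at 0.57 ± 0.07, and 3 rose and 3 fell under quantile normalization or cyclic loess.

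**Figure D4:**
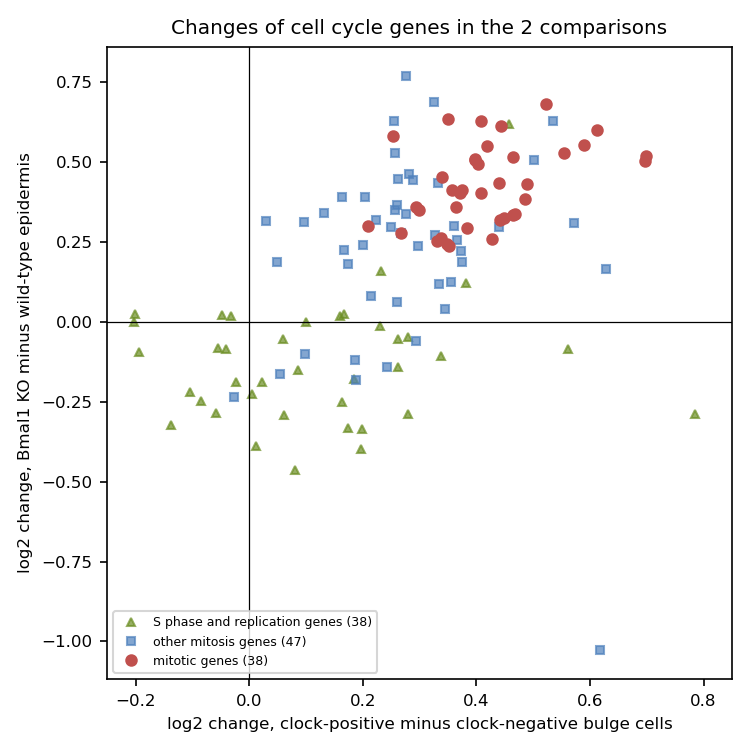
Change of cell cycle genes in the epidermis (vertical, KO minus wild type) against bulge cells (horizontal, clock-positive minus clock-negative), both on the log2 scale, 1 point per gene tested in both sets. All 38 mitotic genes (red) lie in the upper right, the S phase genes (green) centre near 0.09 across and -0.12 up, and the lone blue square at the bottom right is Cdc25b (0.62 and -1.03).

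In the epidermis 0 of 55 other mitosis genes were called higher and 1 lower, with a median of 0.27 and 47 positive changes. At an unadjusted p under 0.05, 13 were higher and 1 lower, where 2.46% of all genes were higher and 5.50% lower. The highest by p were Spc24, of the Ndc80 complex, at 0.69 ± 0.14 (limma adjusted p = 0.151), the kinase Melk at 0.63 ± 0.14 (0.197) and the mitotic kinase Pbk at 0.77 ± 0.18 (0.226). The gene called was Cdc25b, which read 8.95, 8.70 and 8.67 in KO arrays, against 9.59, 9.97 and 9.84 in wild-type arrays. Its groups were far apart and it fell by 1.03 on the log2 scale (SE 0.13, limma adjusted p = 0.0386), against the direction of the mitotic members. The call held in 1 of 6 fits that left out 1 array, that without wild-type array 1 (adjusted p = 0.00848); it was lost without KO array 1 (0.0677), KO array 2 (0.189), KO array 3 (0.162), wild-type array 2 (0.140) or wild-type array 3 (0.107). The change itself stayed between -1.13 and -0.94. S phase genes had 0 of 38 called, 9 positive changes and a median of -0.12, and the regulators and the brakes had 0 of 21 and 0 of 15 called, with medians of -0.01 and 0.04. At an unadjusted p under 0.05, 1 S phase gene was higher and 5 lower, 1 regulator was higher and 2 lower, and 2 brakes were higher, beside the same 2.46% and 5.50% of all genes. Rrm2, a subunit of the enzyme that makes deoxynucleotides, was at 0.62 ± 0.16 (limma adjusted p = 0.294), and Mcm6, of the replicative helicase, at -0.39 ± 0.13 (limma adjusted p = 0.450).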

How the data were processed

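Expression was measured on Affymetrix whole-transcript arrays in 12 pools of sorted mouse cells. The authors deposited 1 log2 intensity per probe set and array. RMA was used, per the submitters' processing notes, with version and settings not given in the sources used here. Per the labels' protocols, RNA was amplified before labelling. Probe sets were named through the platform annotation given with the series (21789 of 35512 carry 1 symbol, 1621 several and 12102 none; only the first were used). For each symbol the probe set measured on all 12 arrays with the highest mean was kept. Genes in the lowest 30% by mean were left out of each comparison, which left 13956. Groups were compared with limma 3.58.1 in R 4.3.3 (lmFit and eBayes without trend, two-sided), with Benjamini-Hochberg adjustment over all genes tested. The p-values measure the spread between 3 arrays per group, each a pool of mice, and precision is limited by that number. The fits were tested on simulated data.

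Members, lists and motifs were chosen with earlier results of these data known, and no test over a list was made. Values on every array are given for the 6 members with the largest and the 3 with the smallest change in each comparison, and for others only beside them; Hmmr in bulge cells, Ndc80 in the epidermis and Cdc25b were added after their values were seen. From each other list up to 4 genes with the smallest p were named. Alternatives were median centring, quantile and cyclic loess normalization, other dim filters, eBayes with trend, 1 fit of all 12 arrays, a replicate block, the mean of all probe sets and leaving out each array. The counts of members without overlap and at an unadjusted p under 0.05 were added after the calls were seen.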

Additional observations from a re-analysis of the deposited data

Results flagged for a closer look

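In the 4 other cell cycle lists 8 of 120 genes tested had a bulge change that differed from their KO change past the threshold, all positive. That share of 6.67% is below the 9.90% of all genes called positive, and the count for the mitotic members was 0 of 38. Their values are the bulge change (clock-positive minus clock-negative) minus the epidermis change (KO minus wild type), from the limma fit of all 12 arrays with p adjusted over 13100 genes. Cdc25b, the CDK1-activating phosphatase, differed by 1.64 ± 0.15 (adjusted p = 1.85e-05), from 0.62 in bulge cells and -1.03 in the KO. Pole2, a subunit of DNA polymerase epsilon, differed by 1.07 ± 0.17 (adjusted p = 0.00232). Rb1, the retinoblastoma protein, differed by 0.97 ± 0.17 (adjusted p = 0.00434), with 0.48 in bulge cells and -0.49 in the KO. Rfc4, of the clamp loader, differed by 0.65 ± 0.14 (adjusted p = 0.0143). Gins1 (0.60 ± 0.16, adjusted p = 0.0318), Prim1 (0.57 ± 0.16, adjusted p = 0.0338) and Mcm4 (0.53 ± 0.15, adjusted p = 0.0388), all of the replication fork, and Lin54 (0.39 ± 0.12, adjusted p = 0.0424) followed. Of 18 other settings the call held in 18 for Cdc25b, Pole2 and Rb1, in 17 for Rfc4, which missed with the replicate block (adjusted p = 0.0571), in 9 for Gins1, in 6 each for Prim1 and Mcm4 and in 4 for Lin54. The 2 sets come from mice of other ages, skin compartments and pool sizes, which cannot be told apart here. Groups of 3 arrays were too small for a search for outlying samples.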

How the results depend on the processing

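Fewer bulge members were called under quantile normalization (20) and cyclic loess (24) than as deposited (38), and the module mean difference was 0.27 in each; the cause was not tested. Over all genes 6311 were called higher and 2555 lower as deposited, 2645 and 2723 under quantile normalization, and 2862 and 2816 under cyclic loess. Of 565 refits of single bulge members 513 kept direction and side of the threshold and 52 lost the call. In the epidermis 571 of 585 kept both, 12 gained a call, and 2 turned sign: Top2a at -0.10 with the mean of all probe sets and Hmmr, whose change ran from -0.0084 to 0.45 when single arrays were left out, without wild-type array 3. Epidermis calls of members were 1 after median centring (Cdk1, adjusted p = 0.0495) and 11 with all 12 arrays in 1 fit. The share of all genes called higher there was 0.308% and 1.07% in these fits, against 0.0788% in the fit used above. The 12-array fit called 30 bulge members against 38 and lost Bub1, Bub1b, Cenpe, Kif20b, Mki67, Ndc80, Nuf2 and Top2a. Over all genes it called 3494 higher in the bulge, against 6311. The cause of these shifts was not tested. Calls in the 4 other lists were 69 in bulge cells and 22 in the 12-array fit, and 1 in the epidermis (Cdc25b), 0 with no dim filter and 7 in the 12-array fit. Calls of members in the difference of the changes were 1 under quantile normalization and 2 under cyclic loess, against 0, all negative. Of all genes 5.58% and 5.11% were called negative under these 2 scalings.

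Leaving out each array gave 35 to 38 bulge members called, a module difference of 0.37 to 0.48, and 53 to 78 calls in the other lists. The count without overlap stayed at 39, which tests nothing, because removing an array cannot make separated groups overlap. In the epidermis leaving out each array gave 0 members called, where 0.0215% to 0.193% of all genes were called higher. At an unadjusted p under 0.05, 14 to 38 members were higher, where 1.83% to 2.97% of all genes were. The module difference was 0.29 to 0.53 there, with 0 to 1 calls in the other lists. The epidermis count without overlap was 27 to 39, and for the same reason it could not fall below the 27 of all arrays. With all arrays 4.11% of all genes lay apart with the KO higher, and that share was not counted with arrays left out. In the difference of the changes 0 to 1 members were called when single arrays were left out. Of all genes 3.59% to 29.1% were called positive there and 0.84% to 8.28% negative. The replicate numbers share no stated litter or day. Deviations of same-numbered arrays from their group means correlated at 0.24, 0.26 and -0.06 in the bulge and at -0.44, 0.04 and -0.52 in the epidermis. Those of arrays with different numbers correlated at -0.32 to 0.13 in the bulge and at -0.31 to 0.54 in the epidermis. The fit with the replicate block called 38 of 38 bulge members and 73 other list genes in the bulge. Of all genes it called 47.0% higher and 20.0% lower there. It called 0 epidermis members, 0 members in the difference and 0 other list genes in the epidermis (Cdc25b, limma adjusted p = 0.395). Of all genes it called 0% higher and 0.0215% lower in the epidermis, and 1.49% positive and 0.282% negative in the difference. Signal over background was not analysed here.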
